A study of Mus musculus with 74 samples.

Results

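Tmem255a, Clca2, Tmem178, Car8, Tbx3, Sema3c, Olfm1 and S100a4 are 8 of the 18193 genes measured in white fat of fenretinide-treated mice, chosen for a clear change on day 29, 5 of them upwards and 3 downwards. They were picked by symbol from the day 29 contrast, so the day 29 values are given as a description without a test. The other comparisons, in mice or tissues the choice did not use, were tested. The day 15 test in white fat shares its estimate of the spread with the day 29 mice, so it is not fully independent of the choice. The 8 genes have 20 probe sets that carry a single gene symbol. Each gene is described by its brightest probe set over the 74 arrays, and the others follow further on. They are grouped here under the working name of late fenretinide responders, and their day 15 values are given beside those of day 29.

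The mice were male B6C3F1, and those given a compound received it daily for up to 29 days. Fenretinide, a synthetic retinoid, was given in the diet at 500 mg/kg, and white fat was taken on day 15 from 3 vehicle and 3 treated mice and on day 29 from 4 and 4. Troglitazone, a thiazolidinedione that activates the nuclear receptor PPARγ, was given by mouth at 1200 mg/kg, and brown fat and liver came from 5 vehicle and 5 treated mice on each day. Elmiron (pentosan polysulfate, a sulfated polysaccharide) was given by mouth at 1000 mg/kg, and liver came from 5 vehicle and 5 treated mice on each day. Each compound had its own study with its own vehicle mice, and white fat was profiled in the fenretinide study alone, so its tissue and its study cannot be told apart. The labels give neither the fat depot nor the age of the mice.

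White fat stores lipid in adipocytes and also holds fibroblasts, vessels and macrophages. Retinoids act through nuclear receptors that bind DNA as pairs and raise genes of their own storage and breakdown. The 8 genes do not belong to one pathway: Sema3c and Olfm1 encode secreted proteins, Clca2, Tmem255a and Tmem178 membrane proteins, Car8 and S100a4 proteins inside the cell, and Tbx3 a transcription factor. In bulk tissue, fewer cells of a type and less RNA per cell cannot be told apart.

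Some libraries stood apart from the rest of their group. Among brown fat libraries, vehicle mouse 82 and troglitazone mouse 95 of day 29 had Ucp1, the heat-producing protein of brown adipocytes, at 5.91 and 8.10 log2 units, against 14.9 to 15.1 in the other 18. They had leptin (Lep), a white adipocyte hormone, at 12.3 and 13.2, against 6.55 to 9.41. Without them no member was called in the brown fat treatment comparisons either, and those of Sema3c and Car8 and the comparison with liver are given without them too. In white fat of day 29, vehicle mouse 86 and fenretinide mice 93 and 95 were high in markers of brown adipocytes or hepatocytes, and results of day 29 are given without them too. On day 15, fenretinide mouse 59 had a smooth muscle marker score (the list's mean log2 difference from the same day's vehicle mean) of 2.44, against 0.10 and 0.25 in mice 58 and 57, and an epididymis and vas deferens score of 1.49, against -0.15 and -0.08. Adipoq, the adipocyte hormone adiponectin, was between 14.77 and 14.99 in all white fat libraries. The adipocyte score as a whole was lower with fenretinide, with no overlap on either day: -0.54 to -0.17 against -0.03 to 0.06 on day 15, and -0.55 to -0.37 against -0.05 to 0.08 on day 29. Of its 8 measured markers, 1 was called lower on each day (the lipase Pnpla2 on day 15 and Lep on day 29).

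Tmem255a and Clca2 had already risen on day 15. Tmem255a, a membrane protein of little-known function, read 5.85, 6.29 and 5.95 log2 units in the day 15 vehicle mice and 8.35, 7.77 and 8.67 in the fenretinide mice. Clca2, a regulator of calcium-activated chloride channels found in epithelia, read 5.52, 5.79 and 5.25 in vehicle mice and 8.49, 8.32 and 7.32 in fenretinide mice. In both genes every treated mouse lay above every vehicle mouse. The rise was 2.23 ± 0.28 log2 units (SE, n = 3 and 3; 4.70-fold, limma adjusted p = 0.000529) for Tmem255a and 2.52 ± 0.39 (5.75-fold, adjusted p = 0.00276) for Clca2. These were the 2 of 8 genes called on day 15, where limma called 3.95% of all genes tested (719 of 18193). Of those 719 calls, 82.8% were higher. With each array centred on its median 2308 were called, 23.9% of them higher, and with quantile normalization 865, 63.6% of them higher. Median centring moved the median change of all genes from -0.04 to -0.20, and both genes stayed called under every setting run that kept them, with a largest adjusted p of 0.0186 for Clca2 and, with the mean of its probe sets (a rise of 1.10), 0.0121 for Tmem255a. With any array left out, mouse 59 among them, they were called too, at 2.03 to 2.48 for Tmem255a and 2.30 to 2.89 for Clca2.

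On day 29 Tmem255a read 5.96, 6.20, 5.49 and 5.83 in vehicle mice and 7.72, 7.78, 8.70 and 7.78 in fenretinide mice. Clca2 read 5.0, 5.86, 5.82 and 6.20 against 8.25, 6.91, 7.45 and 8.14. The groups again did not overlap. The differences were 2.12 ± 0.24 (SE, n = 4 and 4; 4.36-fold) and 1.97 ± 0.34 (3.91-fold). The day 15 change was thus 105.1% of the day 29 change in Tmem255a and 128.2% in Clca2, so the name of a late response does not describe these genes.

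Epithelial markers were also high in the day 15 fenretinide libraries. Of 13 general epithelium markers, 7 were called higher on day 15, with a median change of 2.13 log2 units. Their score ran from -0.27 to 0.19 in vehicle mice and was 2.10, 2.24 and 3.15 in the treated ones. Cdh1, the adhesion protein of epithelial cells, ran from 3.76 to 4.09 in vehicle mice and from 8.05 to 9.84 in treated mice. On day 29 none of the 13 was called, Cdh1 ran from 3.96 to 4.22 in vehicle and from 4.07 to 4.55 in fenretinide mice, while Tmem255a and Clca2 differed by 2.12 and 1.97. What part the epithelial signal had in the day 15 values was not tested.

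The promoters of Tmem255a and Clca2 are shown because both genes were called on day 15. They are given 5′ to 3′ on the gene's own strand, as the 250 bases before the start in RefSeq (build GRCm38.p6). Letters of the motifs searched are in capitals. Tmem255a lies on the minus strand at chrX:38252482-38252731 and Clca2 on the minus strand at chr3:145099107-145099356.
Tmem255a: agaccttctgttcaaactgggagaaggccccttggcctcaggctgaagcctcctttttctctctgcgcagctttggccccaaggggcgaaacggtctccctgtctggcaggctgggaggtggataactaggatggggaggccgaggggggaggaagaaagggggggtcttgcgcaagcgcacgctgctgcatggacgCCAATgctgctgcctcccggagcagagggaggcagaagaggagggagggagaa
Clca2: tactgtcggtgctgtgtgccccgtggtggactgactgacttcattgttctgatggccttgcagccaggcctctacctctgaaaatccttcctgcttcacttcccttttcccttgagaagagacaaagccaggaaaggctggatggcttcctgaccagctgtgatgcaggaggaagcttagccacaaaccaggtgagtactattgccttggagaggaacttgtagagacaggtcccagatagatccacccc
Searched on both strands were the half-site of retinoid receptors, as AGGTCA, and its variant spelling with a changed middle letter, as AGTTCA. The direct repeats of such half-sites with 5 or 2 bases between were searched as well, each half-site starting with A or G and having G or T before its closing TCA. The general promoter motifs were the GC box, as GGGCGG, the TATA box, as TATAAA, and the element known by its letters CCAAT. The Tmem255a window held the last of these at -53 from the start, a motif in 33.8% of 32851 mouse promoter windows of this length, and the Clca2 window held none. No direct repeat was found in the 7 entries of 6 of the 8 genes, and such repeats were in 0.0883% (5 bases between) and 0.174% (2 bases between) of all windows. A missing match says only that these letters are not in this window.

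**Figure D1:**
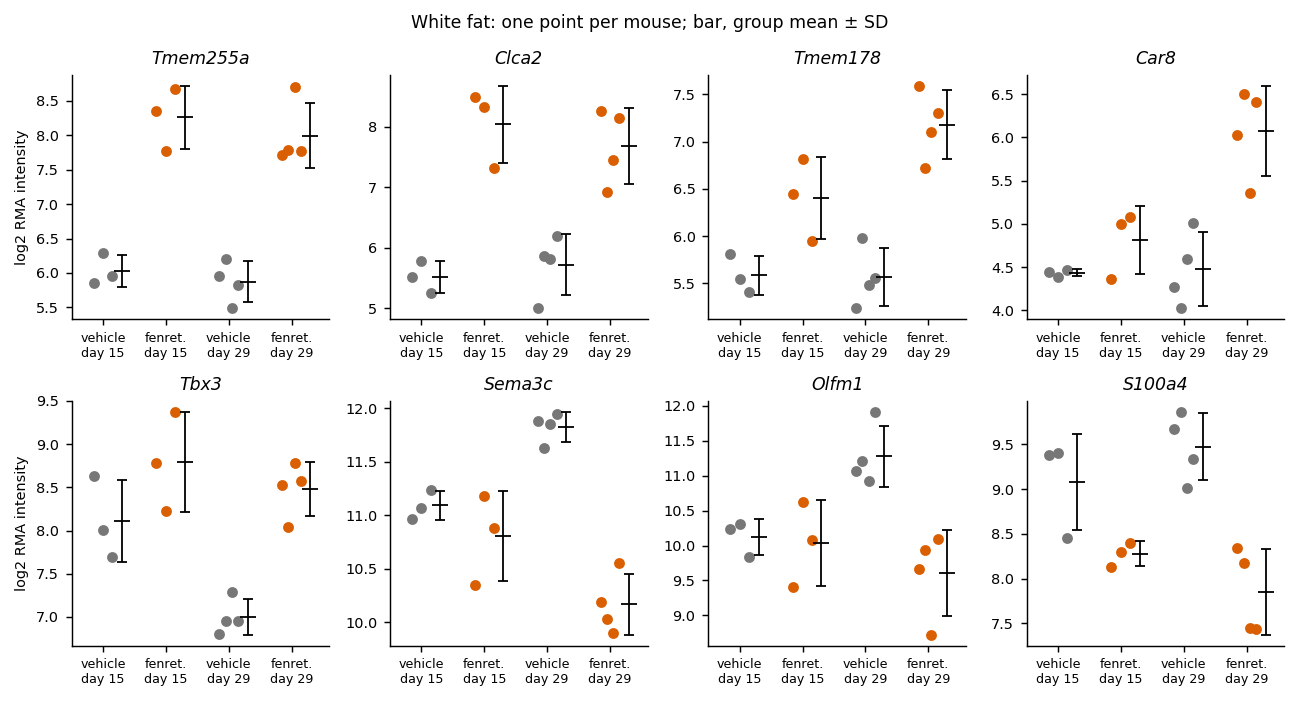
Log2 intensity of each of the 8 genes in white fat of every mouse, by group (vehicle and fenretinide, days 15 and 29), with 1 point per mouse and a bar for the group mean ± SD. Vehicle and fenretinide mice of Tmem255a, Clca2, Tmem178 and S100a4 lay apart on both days, and those of Car8, Tbx3, Sema3c and Olfm1 on day 29 but not on day 15.

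Tmem178, Car8 and Tbx3 had smaller or less certain differences on day 15 and higher ones on day 29. Tmem178, a membrane protein of the endoplasmic reticulum that restrains calcium signalling in osteoclasts, read 5.81, 5.55 and 5.41 in day 15 vehicle mice and 6.44, 6.82 and 5.95 in fenretinide mice. Its day 29 values were 5.24, 5.98, 5.49 and 5.56 against 7.59, 6.72, 7.10 and 7.30. The groups did not overlap on either day. The differences were 0.81 ± 0.25 (adjusted p = 0.0966) on day 15 and 1.61 ± 0.22 (3.06-fold) on day 29, and without fenretinide mouse 59 the day 15 rise was 1.04 and was called (adjusted p = 0.0264). Groups did not overlap in 4 of the 8 genes on day 15, as in 27.9% of all genes. On day 29 they did not overlap in 8 of 8, against 8.75% of all genes, in the contrast that chose the genes.

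Car8, a carbonic anhydrase-related protein that has no enzyme activity and binds the inositol trisphosphate receptor, read 4.45, 4.39 and 4.47 in day 15 vehicle mice and 4.36, 5.0 and 5.08 in fenretinide mice. On day 29 it read 4.27, 4.02, 4.59 and 5.01 against 6.02, 6.51, 5.36 and 6.41. Day 15 groups overlapped through fenretinide mouse 57, and day 29 groups did not. The differences were 0.38 ± 0.30 (adjusted p = 0.52) and 1.60 ± 0.26 log2 units. Vehicle mice had Car8 at the percentiles 9.9 (day 15) and 11 (day 29) of all probe sets, a signal not shown here to be above background, so no fold or share of Car8 is given. The highest vehicle value on day 29, 5.01, was that of mouse 86, and 6.51 and 6.41 were those of mice 93 and 95, the libraries high in liver or brown fat markers. Mice 91 and 94, not among these libraries, read 6.02 and 5.36. Over all day 29 white fat mice, Ucp1 ran from 5.13 to 13.44 with vehicle and from 7.51 to 14.66 with fenretinide. The hepatocyte list score was 2.08 in mouse 86 and 3.07 in mouse 95, and the brown adipocyte score was 3.16 in mouse 93. None of the 10 hepatocyte and 9 brown adipocyte markers was called on day 29. Most were above 0 with fenretinide, 9 of 10 for hepatocytes (median change 0.57) and 9 of 9 for brown adipocytes (0.93). The median change of all genes was -0.02. What part this signal had in the Car8 values was not tested. Without the 3 libraries the Car8 difference was 1.39.

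Tbx3, a T-box transcription repressor needed in limb and mammary development, read 8.63, 8.01 and 7.70 in day 15 vehicle mice and 8.78, 8.22 and 9.37 in fenretinide mice. On day 29 it read 6.81, 6.95, 7.29 and 6.96 against 8.52, 8.04, 8.79 and 8.57. The groups overlapped on day 15 and did not on day 29. The differences were 0.68 ± 0.29 (adjusted p = 0.214) and 1.48 ± 0.25 (2.79-fold). Vehicle mice of day 29 were lower than those of day 15 by 1.11 log2 units, with no overlap. Fenretinide mice of day 29 overlapped the day 15 vehicle mice (0.37 higher). The day 29 mice are those that chose the gene, and the vehicle mice of the 2 days were not tested against each other.

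Sema3c, Olfm1 and S100a4 were lower with fenretinide on day 29, and none was called on day 15. Sema3c, a secreted semaphorin that signals through neuropilins and plexins and is released by adipocytes, read 10.97, 11.07 and 11.24 in day 15 vehicle mice and 10.35, 11.18 and 10.88 in fenretinide mice. On day 29 it read 11.88, 11.63, 11.85 and 11.95 against 10.19, 10.03, 9.90 and 10.55. The day 15 groups overlapped and the day 29 groups did not. The differences were -0.29 ± 0.20 (adjusted p = 0.45) and -1.66 ± 0.17 (3.15-fold lower).

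Olfm1, a secreted glycoprotein with an olfactomedin domain best known from neurons, read 10.23, 10.30 and 9.83 in day 15 vehicle mice and 9.41, 10.62 and 10.08 in fenretinide mice. The day 29 values were 11.07, 11.21, 10.92 and 11.91 against 9.66, 9.93, 8.73 and 10.10. Its day 15 values were intermixed. The differences were -0.09 ± 0.37 (adjusted p = 0.922) and -1.67 ± 0.32 (3.18-fold lower), and the day 15 sign turned to 0.23 without fenretinide mouse 57. As with Tbx3, the vehicle mice of the days differed: vehicle mice of day 29 were higher than those of day 15 by 0.73 for Sema3c and 1.15 for Olfm1, with no overlap. These, with Tbx3, were 3 of 8 genes whose vehicle mice of the 2 days did not overlap, against 11.6% of all genes. This count uses the day 29 vehicle mice of the contrast that chose the genes. That choice can favour such differences, and no test was made. Olfm1 of fenretinide mice on day 29 overlapped that of day 15 vehicle mice (-0.52).

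S100a4, a calcium-binding protein made by fibroblasts and macrophages, read 9.38, 9.40 and 8.46 in day 15 vehicle mice and 8.13, 8.30 and 8.40 in fenretinide mice. Its levels on day 29 were 9.68, 9.86, 9.02 and 9.34 against 8.34, 8.18, 7.45 and 7.44. All treated mice were below all vehicle mice on each day. The differences were -0.80 ± 0.30 (adjusted p = 0.166) and -1.62 ± 0.26 (3.08-fold lower), and with median centring the day 15 value was -0.96 and called (adjusted p = 0.0477). Most markers of fibroblasts and macrophages were lower too on day 29, with 3 of 9 and 1 of 12 above 0. Called lower were 3 fibroblast markers and 1 macrophage marker, where 1.34% of all genes were called. The fibroblast score ran from -0.52 to 0.33 in vehicle and from -0.66 to -0.39 in fenretinide mice. For macrophages it ran from -0.36 to 0.21 and from -0.48 to -0.33, so both lists overlapped. Median changes of other cell type lists went both ways. Among them were mesothelium (-0.55, 2 of 10 above 0), mast cells (-0.51, 1 of 6) and interstitial adipocyte progenitors (-0.33, 3 of 9). Endothelium (0.28, 9 of 10) and skeletal muscle (0.36, 7 of 8) were mostly higher. Mast cells, interstitial adipocyte progenitors, and B and plasma cells each had 1 marker called lower. None of 5 Schwann cell markers was called, and their score ran from -0.06 to 0.09 in vehicle and from -0.41 to -0.15 in fenretinide mice, with no overlap. The adipocyte score given above did not overlap either. The part of these lists in the lower values of Sema3c, Olfm1 and S100a4 was not tested.

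**Figure D2:**
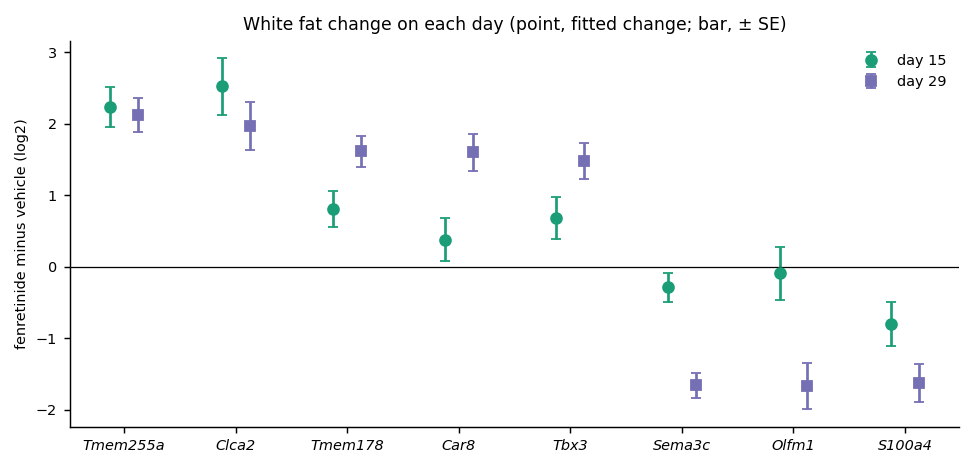
Fenretinide minus vehicle change in white fat (log2) for the 8 genes on day 15 (circles) and day 29 (squares), with bars for ± SE of the fit. Tmem255a and Clca2 lay at or above their day 29 values on day 15, while Olfm1 was near 0 on day 15.

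Among the genes lower with fenretinide, the windows of Olfm1 and S100a4 are shown because they held retinoid half-site letters. The Olfm1 window is on the plus strand at chr2:28192843-28193092, and that of S100a4 on the plus strand at chr3:90603520-90603769.
Olfm1: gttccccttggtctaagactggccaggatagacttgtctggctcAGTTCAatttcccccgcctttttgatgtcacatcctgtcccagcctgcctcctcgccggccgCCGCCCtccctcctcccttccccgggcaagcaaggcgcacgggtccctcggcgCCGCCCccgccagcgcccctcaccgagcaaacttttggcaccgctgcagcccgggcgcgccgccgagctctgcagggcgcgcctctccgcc
S100a4: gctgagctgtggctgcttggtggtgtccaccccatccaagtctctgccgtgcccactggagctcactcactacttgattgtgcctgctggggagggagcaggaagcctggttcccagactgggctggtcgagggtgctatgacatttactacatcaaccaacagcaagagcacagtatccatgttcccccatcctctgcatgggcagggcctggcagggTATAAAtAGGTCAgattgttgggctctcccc
The Olfm1 window held the variant half-site at -206 and the GC box on the other strand at -91 and -144. The S100a4 window held the TATA box at -31 and the first half-site spelling at -24, which do not overlap. Over all windows, the first half-site spelling was found in 14%, the variant in 11.8%, the TATA box in 12.4% and the GC box in 32.7%. A second Olfm1 start, Sema3c and Tmem178 held the GC box alone, and 2 of the 3 Tmem178 matches overlapped. Their windows were rich in G and C, from 69.2% to 78.4%, against a median of 52.4% over all windows.

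The sign of the difference was the same on both days in all 8 genes. For Olfm1 it turned without fenretinide mouse 57 or vehicle mouse 49 of day 15. The day 15 share of the day 29 difference was 5.2% for Olfm1, 17.4% for Sema3c and 46% for Tbx3. It was 49.3% for S100a4, 50.4% for Tmem178 and above 100% for Tmem255a and Clca2. Each share is divided by the day 29 difference that chose the gene, which can make it too low. The difference between days in white fat was not tested. Single day 15 mice moved the low shares: with an array left out, the day 15 change ran from -0.48 (without fenretinide mouse 58) to -0.06 (without mouse 57) for Sema3c, from 0.39 (without mouse 59) to 0.97 (without mouse 58) for Tbx3, and from 0.24 (without mouse 59) to 0.60 (without mouse 57) for Car8. Over all genes the sign was the same in 53.1%, and in 19 of 43 other genes with a day 29 change at least as large as that of Tbx3, the smallest of the 8 (1.48 in size). These 8 were thus some of 51 genes with a difference that large, from rank 13 (Tmem255a) to rank 51 (Tbx3). Fenretinide mice of day 29 lay clear of those of day 15 in 1 of 8 genes, Car8, which was 1.26 higher, against 16.6% of all genes. They lay clear of the day 15 vehicle mice in 6 of 8 (all but Tbx3 and Olfm1), against 10.4% of all genes. Both of these counts use the day 29 mice that chose the genes, and no test was made.

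Without vehicle mouse 86 and fenretinide mice 93 and 95, the day 29 differences of the higher genes were 2.33 for Tmem255a, 2.29 for Clca2, 1.78 for Tmem178, 1.39 for Car8 and 1.64 for Tbx3. Those of the lower genes were -1.74 for Sema3c, -1.87 for Olfm1 and -1.63 for S100a4. Each was between 0.87 and 1.16 times its value over all mice. Only vehicle mice 81, 83 and 85 and fenretinide mice 91 and 94 were left, all from the contrast that chose the genes.

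Not every probe set of a gene told the same. The 4 Tmem255a probe sets differed by 2.12, 0.83, 0.98 and 0.68 on day 29, all without overlap, and on day 15 only the brightest was called when each probe set was tested (adjusted p = 0.000479). Olfm1 differed by -1.67, -1.66 and -2.16 and Sema3c by -1.66 and -1.03 on day 29. Of the 3 Car8 probe sets, the brightest differed by 1.60, whereas the other two differed by 0.06 and 0.08 and overlapped. Of the 5 Tbx3 probe sets, 3 differed by 1.48, 1.16 and 0.88 with no overlap, and the other two by 0.04 and 0.11 with overlap. Clca2, Tmem178 and S100a4 have 1 probe set each. With the mean of a gene's probe sets in place of the brightest, the day 29 differences were 1.15 for Tmem255a, 0.58 for Car8 and 0.74 for Tbx3.

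**Figure D3:**
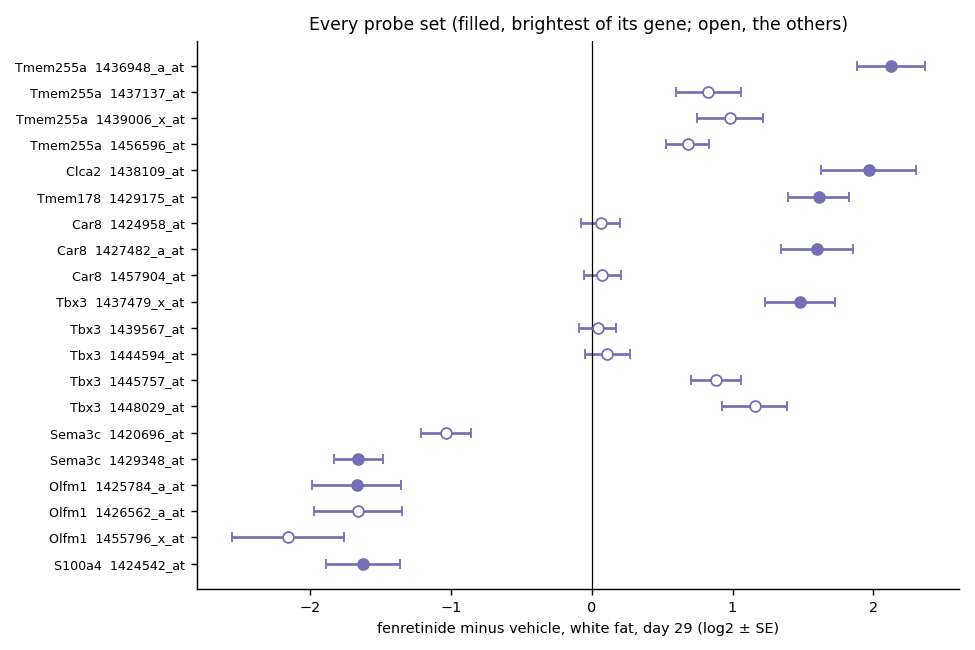
Day 29 change in white fat (log2, fenretinide minus vehicle, with bars for ± SE) of each of the 20 probe sets, filled for the brightest of a gene and open for the others. The brightest reached -1.67 to 2.12, and 2 Car8 and 2 Tbx3 probe sets stayed near 0.

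Relatives of the 8 genes mostly missed the threshold in white fat. Calls are those of limma over all genes, called for 3.95% on day 15 and 1.34% on day 29. Of 13 class 3 semaphorins and receptors, Sema3b rose by 0.89 (adjusted p = 0.0411) and Plxna3, a receptor subunit, fell by 0.39 (adjusted p = 0.0385) on day 15, and Nrp2, a receptor, rose by 0.69 (adjusted p = 0.0208) on day 29. These calls are weak: the first 2 were kept in 5 of 14 fits that left out an array. Of 13 T-box factors, 1 was called, the repressor Tbx2, which rose by 2.46 on day 15 (adjusted p = 4.96e-05) and differed by 0.25 on day 29 (adjusted p = 0.65). Of 15 carbonic anhydrases, Car4 and Car5b fell by 2.01 (adjusted p = 0.00599) and 0.77 (adjusted p = 0.0132) on day 15 and none was called on day 29. Of 7 olfactomedin domain genes, Olfml3 rose by 1.53 on day 15 (adjusted p = 0.00473) and none was called on day 29. Tmem178b, a paralog of Tmem178, differed by -0.36 and -0.02 and was not called. None of 12 S100 genes and 6 Clca genes was called on either day, though some differed by much. S100a9 differed by -1.25 ± 0.68 on day 15 (adjusted p = 0.337) and 2.18 ± 0.59 on day 29 (adjusted p = 0.0908). Clca3a1 differed by 1.51 ± 0.84 on day 15 (adjusted p = 0.345) and -0.09 on day 29. Apart from Tmem178b, the median change of the lists of relatives lay between -0.25 and 0.09 on both days. That of all genes was -0.04 and -0.02.

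Genes that respond to or handle retinoids were measured in the same mice. Of 15 such genes, 3 were called higher on each day and none lower, with list medians of 0.14 and 0.12. Cyp26b1, which breaks down retinoic acid, rose by 4.05 (adjusted p = 1.89e-07) on day 15 and 3.77 (adjusted p = 4.53e-07) on day 29. Lrat, which stores retinol as esters, rose by 1.60 (adjusted p = 0.000302) and 2.14 (adjusted p = 4.73e-05), or by 0.97 and 1.31, still called, with the mean of its probe sets. Rarb, a retinoic acid receptor, rose by 0.88 (adjusted p = 0.0211) and 0.91 (adjusted p = 0.0244). Rarb kept its call in 10 of 14 fits that left out an array, on each day. Without vehicle mouse 86 and fenretinide mice 93 and 95, neither Rarb (0.83, adjusted p = 0.131) nor Nrp2 (0.71, adjusted p = 0.131) was called on day 29, with changes about as large. The flanking genes of the 8, 16 in all, had no call on either day (smallest adjusted p = 0.139, Ppp1r26 beside Olfm1).

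The genes whose white fat pattern was most like each member were found from the mean absolute difference over the 14 white fat arrays, each gene taken relative to its same-day vehicle mean. For Tmem255a they were Eda2r (0.33), Lrat (0.33) and Id4 (0.45), and for Clca2 Eda2r (0.40), Ccnd1 (0.47) and Lrat (0.48). For Tmem178 the closest was Adm (0.26), for Car8 Plin5 (0.36), for Tbx3 Id1 (0.23), and for S100a4 Ear3 (0.28). Sema3c was closest to Adamts5 (0.23) and Col6a2 (0.24) and then to Olfm1 (0.28), and Olfm1 was closest to Sema3c. The 14 arrays include the mice that chose the genes, so likeness between members is set in part by the choice. Over the 16 group means, Tmem255a was most like Clca2 (r = 0.99), and Car8 was most like Cyp2d22 (r = 0.997), a description across groups that share tissues and studies.

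**Figure D4:**
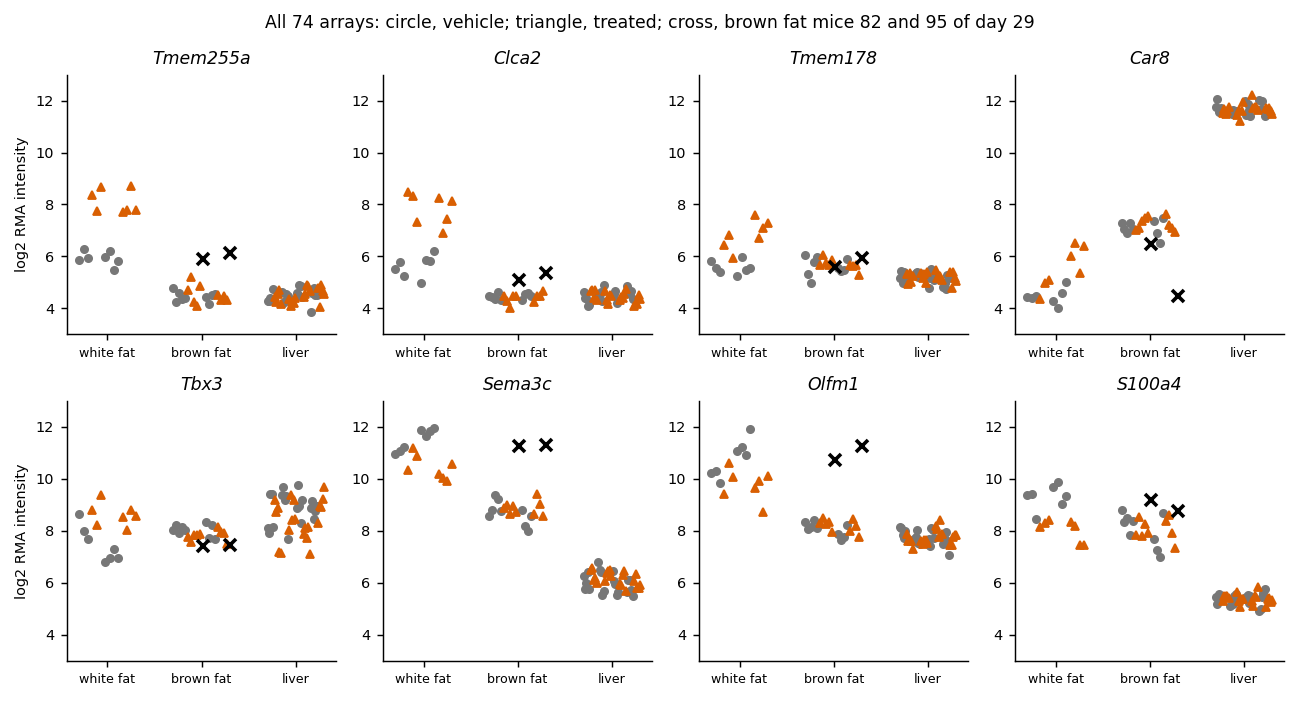
Log2 intensity of the 8 genes on all 74 arrays of white fat (14), brown fat (20) and liver (40), with circles for vehicle mice, triangles for treated mice and crosses for brown fat mice 82 and 95 of day 29. Car8 was highest in liver, and the crosses lay far above the other brown fat points for Sema3c and Olfm1.

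Across tissues, the 8 genes fell into different patterns. The white fat medians pool vehicle and fenretinide mice, so they hold the change for which the genes were chosen. Tmem255a and Clca2 were highest in the 2 fenretinide white fat groups, clear of every other group, and their medians in brown fat (4.49 and 4.48) and liver (4.51 and 4.49) lay below the 7.0 and 6.56 of white fat. Neighbouring groups from there on overlapped. Car8 was highest in liver (median 11.65), lower in brown fat (7.10) and lowest in white fat (4.79), and even the day 29 fenretinide mice, at 5.36 to 6.51, lay below all liver libraries (11.23 to 12.21). Sema3c was highest in white fat (11.02) and lowest in liver (6.08), with the day 29 vehicle mice clear of all other groups. S100a4 was 8.43 in white fat, 8.29 in brown fat and 5.41 in liver. Olfm1 was 10.16, 8.21 and 7.70, Tmem178 5.96, 5.68 and 5.22, and Tbx3 8.13, 7.90 and 8.87, with the day 29 white fat vehicle mice of Tbx3 the lowest of all groups and clear of the next. In vehicle mice alone, Tmem178 was not higher in white fat (means of 5.59 and 5.57 on days 15 and 29) than in brown fat (5.63 and 5.59).

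The troglitazone study had both brown fat and liver, from the same mouse where the numbers match, so the tissues of its vehicle mice could be compared. Of the 8 genes, 5 were called, as were 76.1% of all genes. Car8 was 24.6-fold higher in liver (log2 difference -4.62, adjusted p = 6.93e-21), and Tbx3 was also higher there (-0.86, adjusted p = 0.00242). Sema3c (2.84, 7.16-fold, adjusted p = 3.9e-11), S100a4 (2.79, 6.93-fold, adjusted p = 6.96e-16) and Tmem178 (0.34, adjusted p = 0.00314) were higher in brown fat. Tmem255a (0.17, adjusted p = 0.39), Clca2 (0.08, adjusted p = 0.516) and Olfm1 (0.50, adjusted p = 0.123) missed the threshold. In these vehicle groups Tmem255a lay at mean percentiles of 7.6 to 13.6 and Clca2 at 6.7 to 11.5, not shown here to be above background. With the mean of a gene's probe sets, Tbx3 was -0.44 and Sema3c 1.83, and with quantile normalization Tmem178 was 0.56, all still called. Without brown fat mice 82 and 95 the called values were -4.56 for Car8, -0.80 for Tbx3, 2.55 for Sema3c, 2.64 for S100a4 and 0.34 for Tmem178, and Olfm1 was called at 0.22 (adjusted p = 0.029), as it was without mouse 95 alone (0.50, adjusted p = 0.0307).

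The libraries of mice 82 and 95 also carried the members at other levels. Tmem255a read 5.88 and 6.12 in them against 4.19 to 4.56 and 4.32 to 4.53 in the rest of their groups. Olfm1 read 10.72 and 11.27, Sema3c 11.26 and 11.28, and Car8 6.47 and 4.47. Alb, the hepatocyte albumin gene, read 14.6 and 10.4, and the part of tissue content in these levels was not tested.

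Troglitazone and Elmiron moved none of the 8 genes past the threshold. With troglitazone in brown fat the differences ran from -0.30 to 0.18 on day 15 and from -0.28 to 0.42 on day 29. The 0.42 was that of Sema3c, which was -0.05 without mouse 95 and 0.52 without mice 82 and 95. The -0.28 was that of Car8, which turned to 0.16 without these mice (adjusted p = 0.749). In liver they ran from -0.38 to 0.24 and from -0.37 to 0.15. Both lower ends were Tbx3, which ran from -0.62 (without troglitazone mouse 52) to -0.11 (without mouse 56) on day 15 and from -0.71 (without vehicle mouse 88) to -0.20 (without troglitazone mouse 92) on day 29. With Elmiron in liver they ran from -1.21 to 0.28 and from -0.35 to 0.18. None of 8 genes was called by limma in these comparisons, as few genes were at all: 0.0605% of all genes on day 15 and 0.055% on day 29 in brown fat, 0.022% and 0.115% in liver with troglitazone, and 0% (997 genes at an unadjusted p under 0.05) and 0.0055% with Elmiron. An unadjusted p under 0.05 was met in brown fat by none of the 8 on either day, and by 3.75% and 6.01% of all genes. With troglitazone in liver it was met by 1 of 8 (Olfm1) on day 15 and none on day 29, and by 4.3% and 10.2% of all genes. With Elmiron it was met by 1 of 8 on each day (Tbx3 and Clca2), and by 5.48% and 8.3% of all genes. Without brown fat mice 82 and 95, limma called 173 genes on day 15 and 198 on day 29 in brown fat, again none of the 8.

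**Figure D5:**
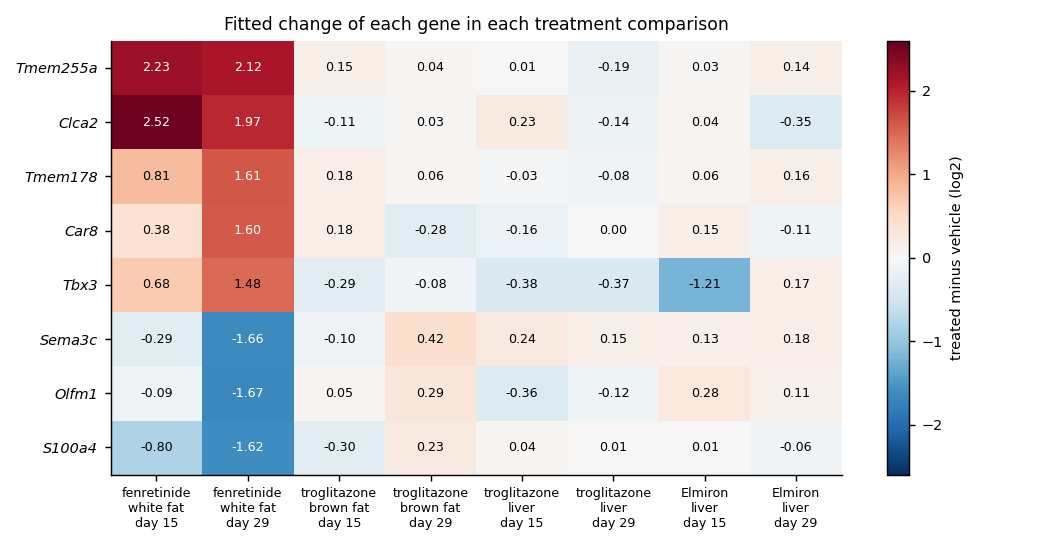
Grid of the fitted change (log2, treated minus vehicle) of the 8 genes, 1 column per compound, tissue and day, coloured red for higher and blue for lower with the value printed in each cell. The white fat values reached 2.52, while outside white fat the lowest was -1.21, Tbx3 in liver with Elmiron on day 15.

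Treated and vehicle mice did not overlap in 2 of the 48 such gene and comparison pairs, both Tbx3. In brown fat on day 15 with troglitazone Tbx3 differed by -0.29, and there 3.25% of all genes had no overlap. In the other comparisons that share was 0.759% in brown fat on day 29, 2.09% and 1.07% in liver with troglitazone on days 15 and 29, and 1.06% and 1.43% in liver with Elmiron. In liver on day 15 with Elmiron, Tbx3 read 8.86, 9.76, 8.95, 8.28 and 9.19 in vehicle mice and 7.88, 8.12, 7.73, 8.16 and 7.10 in treated mice. Every treated mouse was below every vehicle mouse. The difference, -1.21 ± 0.25 (n = 5 and 5; 2.31-fold lower), was the largest in size of all 18193 genes, but missed the threshold (adjusted p = 0.549, unadjusted p = 8.01e-05). It ran from -1.39 to -1.02 with an array left out, and was -0.34 (adjusted p = 0.772) for the mean of the 5 probe sets, of which the others differed by -0.64, -0.16, 0.16 and 0.12. On day 29 it was 0.17 ± 0.25 (adjusted p = 0.858), and the difference between days, 1.38 ± 0.35, missed the threshold (adjusted p = 0.821).

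Tests of differences between effects called none of the 8 genes. Between days they called 0% of all genes in brown fat, in liver with troglitazone and in liver with Elmiron. There an unadjusted p under 0.05 was met by 207, 1363 and 981 of all genes and by none, 1 (Clca2) and 2 (Clca2 and Tbx3) of the 8. Between brown fat and liver of troglitazone mice they called 0.022% of all genes on day 15 and 0.0165% on day 29, with none of the 8 at an unadjusted p under 0.05, which 3.19% and 5.4% of all genes met. Without brown fat mice 82 and 95 they called 21 and 49 genes, none of them a member (smallest adjusted p = 0.617). Between troglitazone and Elmiron in liver they called 0.0055% and 0.0934%, with 1 (Olfm1) and none of the 8 at an unadjusted p under 0.05, met by 5.97% and 12.7% of all genes. The smallest adjusted p of a member in these tests over all mice was 0.477. The studies, doses and compounds go together, and the white fat response was not set against the others, since tissue and study cannot be told apart.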

How the data were processed

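RNA of white fat, brown fat and liver was measured on 74 Affymetrix mouse arrays, 1 per mouse and tissue, from Trizol total RNA labelled as biotin cRNA, per the labels' protocols. The deposited intensity values were made by the authors with RMA, per the submitters' processing notes; its version is not given in the sources used here. They ran from 7.436 to 39426.164 on a linear scale, and log2 was taken. Of 45101 probe sets, 34945 had 1 gene symbol, 932 several, 9160 none and 64 were controls; the 18193 genes were each taken as the single-symbol probe set with the highest mean. Within groups, 138 pairs of arrays correlated at 0.9054 to 0.9965, with 0 identical. For arrays, their number limits the precision.

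The test was limma (version 3.58.1, lmFit followed by eBayes, run in R 4.3.3), fitted to the 4 groups of a tissue and study together, and to 40 arrays for comparisons between tissues or compounds, with Benjamini-Hochberg adjusted p below 0.05 over all genes and no fold threshold. The p-values measure the spread between these mice. The fit was tested on simulated data with normal noise drawn independently for each gene and array. Those data held no outlying libraries like those seen here. The members, lists and tests were chosen with earlier results of these data known. The genes named are all 8 members, up to 4 called members of each list, and the 3 and 2 most alike genes. Alternatives were quantile normalization, median centring, the mean of a gene's probe sets, dropping the dimmer 50% of genes, trended and robust eBayes, every probe set tested, the animal as a block, the 3 day 29 white fat libraries left out together, and each array left out. Leaving out brown fat mice 82 and 95 together was added after the data were seen. Promoter windows came from RefSeq, GRCm38.p6, and 34741 probe sets had a gene ID in its gene table.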

Additional observations from a re-analysis of the deposited data

Results flagged for a closer look

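Of 112 pairs of a gene and a group of 4 or 5 mice, 11 held a mouse whose gap to the nearest other mouse exceeded Dixon's 95% critical value (log2 units throughout), where chance gives about 1 in 20 groups. Of these, 6 came from the brown fat libraries of day 29 with low Ucp1. Vehicle mouse 82 read 5.884 for Tmem255a (others 4.188 to 4.555), 11.26 for Sema3c (7.999 to 8.795) and 10.723 for Olfm1 (7.644 to 8.217). Troglitazone mouse 95 read 6.12 for Tmem255a (4.318 to 4.533), 11.268 for Olfm1 (7.758 to 8.46) and 4.471 for Car8 (6.935 to 7.638).

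In white fat, fenretinide mouse 94 of day 29 read 8.703 for Tmem255a, against 7.717 to 7.78 in the other treated mice. The remaining 4 were in liver. Tmem255a read 4.73 in vehicle mouse 46 of the troglitazone study on day 15 (others 4.281 to 4.399) and 3.857 in vehicle mouse 81 of the Elmiron study on day 29 (4.508 to 4.773). Car8 read 12.211 in Elmiron mouse 51 on day 15 (11.626 to 11.765). Tbx3 read 7.697 in vehicle mouse 88 of the troglitazone study on day 29 (9.198 to 9.702). The cause of these values was not tested.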

How the results depend on the processing

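Both day 15 calls in white fat, Tmem255a and Clca2, held when any of 14 arrays was left out. When the dimmer 50% of genes was dropped, 0 members were called there, because only 4 of the 8 (Olfm1, S100a4, Sema3c and Tbx3) were left, and 2 of the 3 left were called between brown fat and liver. Tmem255a between brown fat and liver turned to -0.0934 with the mean of its probe sets, and Clca2 there was called with quantile normalization (0.28, adjusted p = 0.0298). With an array left out, Olfm1 on day 15 ran from -0.38 to 0.23, and Sema3c with troglitazone in brown fat on day 29 from -0.0519 (without mouse 95) to 0.999 (without mouse 82). The median size of the 8 day 29 differences in white fat, 1.64, ran from 1.48 to 1.76 over the settings.

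Counts of called genes or probe sets moved by over 1.5 times in several comparisons. Part of this is the number tested, 9097 genes with the dimmer 50% dropped and 34945 with every probe set tested. The ranges leave out the fits without brown fat mice 82 and 95, given above. On day 15 in white fat 719 (3.95%) became 358 to 2308 over the settings and 339 to 1023 with an array left out. The 358 were 3.94% of the genes left by the dim filter, and the 2308 of median centring were 12.7%. Troglitazone in brown fat gave 11 to 19 (2 to 43 with an array left out) on day 15 and 4 to 36 (2 to 74) on day 29. In liver it gave 4 to 13 (4 to 9) and 18 to 26 (7 to 50), and Elmiron 0 and 1 to 2 (0 to 2). Brown fat against liver gave 7420 to 25869, their difference in troglitazone effect 3 to 10 and 2 to 5 (1 to 10 and 1 to 30), and troglitazone against Elmiron 0 to 2 and 11 to 23. No member was called in any of these treatment comparisons outside white fat.

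With the animal as a replicate block, which pairs brown fat and liver of the same mice by their numbers, 5 members and 13811 genes were called between the tissues, against 5 and 13851 without it (consensus correlation -0.04). It changed no call of a member. With 3 or 4 mice a group in white fat and 5 elsewhere, the number of arrays limits how small a change can be called.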
